A study of Mus musculus with 16 samples.

Results

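The let-7 family of microRNAs (miRs) apart from mmu-let-7e was followed across 6 mouse bone marrow populations. Its members here are the 8 miRs mmu-let-7a, mmu-let-7b, mmu-let-7c, mmu-let-7d, mmu-let-7f, mmu-let-7g, mmu-let-7i and mmu-miR-98, taken by name from the 577 miRs on the array, with 2 probes each and 16 of the 1712 probes in all. They were chosen by name and seed, not by any measured value, and all 8 passed the detection filter (well above background on at least 3 arrays), as did 237 of the 577 miRs. The 16 one-colour Agilent arrays carried RNA of sorted cells from untreated young adult female C57Bl/6 mice, with several mice pooled for each replicate. The hematopoietic stem cell (HSC) subsets were LT-HSC (long-term HSC, 1 array), ST-HSC (short-term HSC, 3 arrays) and MPP (multipotent progenitors, 3 arrays), and the myeloid progenitors were CMP (common myeloid), GMP (granulocyte-monocyte) and MEP (megakaryocyte-erythroid progenitors), with 3 arrays each. Both sets of populations came from lineage-depleted, c-kit-enriched marrow but from separate sorts, and they were hybridized on 3 slides. The first 2 replicates of each myeloid population lay on slide 1. The LT-HSC array lay on slide 2 beside ST-HSC replicate 1 and the third myeloid replicates, and the remaining ST-HSC arrays and every MPP array lay on slide 3.

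let-7 miRs are small RNAs that silence messenger RNAs matched by their seed, the stretch of bases 2 to 8. They are best known for accumulating as cells leave an immature state, where they hold down growth genes such as Ras, Hmga2 and Myc. Their own maturation is blocked by the RNA-binding proteins Lin28a and Lin28b, which hold the hairpin precursors, and Lin28b is a marker of fetal as against adult blood stem cells. The members are compared here between populations and with each other.

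The mature sequences, taken from RefSeq on build GRCm38.p6, are shown because the members differ by so few bases that their probes may read each other. All 8 members matched an entry. The seed is in capitals and is the same in all, and mmu-let-7e, which also carries it, is given last for comparison.
mmu-let-7a: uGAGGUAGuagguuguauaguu
mmu-let-7b: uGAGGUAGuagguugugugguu
mmu-let-7c: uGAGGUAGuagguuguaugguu
mmu-let-7d: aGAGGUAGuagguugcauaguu
mmu-let-7f: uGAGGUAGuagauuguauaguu
mmu-let-7g: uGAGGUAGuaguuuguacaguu
mmu-let-7i: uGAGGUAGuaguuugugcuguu
mmu-miR-98: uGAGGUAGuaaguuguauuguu
mmu-let-7e: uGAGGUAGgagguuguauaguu

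Each sequence was 22 bases long. With positions counted from 1 at the 5′ end and the base of mmu-let-7a first, mmu-let-7c differed from mmu-let-7a by A19G alone and mmu-let-7f by G12A alone. mmu-let-7b carried A17G and A19G, mmu-let-7d carried U1A and U16C, mmu-let-7g carried G12U and U18C, and mmu-miR-98 carried G11A and A19U. The member farthest from mmu-let-7a was mmu-let-7i, with G12U, A17G, U18C and A19U.

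The genes of the family lie scattered, some of them side by side. On GRCm38.p6, Mirlet7a-1 (mature arm at chr13:48538239-48538260, minus strand), Mirlet7f-1 (chr13:48537889-48537910, minus) and Mirlet7d (chr13:48536078-48536099, minus) form a cluster. Mirlet7c-2 (chr15:85706616-85706637, plus) lies next to Mirlet7b (chr15:85707325-85707346, plus), and Mirlet7f-2 (chrX:151912353-151912374, plus) next to Mir98 (chrX:151913229-151913250, plus). Mirlet7c-1 (chr16:77599672-77599693, plus) neighbours Mir99a. Mirlet7g (chr9:106178846-106178867, plus) and Mirlet7i (chr10:122985698-122985719, minus) are single genes. Because mmu-let-7a, mmu-let-7c and mmu-let-7f are each made from more than 1 gene, the arrays cannot tell which of their genes was used.

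The probes ran from the 3′ end of each miR and covered between 18 and 22 of its bases, to judge from the coordinates that the array files give for them. Over the covered stretch the probes of mmu-let-7a, mmu-let-7b, mmu-let-7c, mmu-let-7d and mmu-let-7f differed from the nearest other member by 1 base. Those of mmu-let-7g, mmu-let-7i and mmu-miR-98 differed from it by 2. How much signal a probe took from another member was not tested.

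The 2 probes of a member mostly moved together. Over the 16 arrays, their log2 values correlated with r between 0.886 and 0.992 in the 7 members other than mmu-let-7i, and the SD of their log2 ratio was between 0.115 and 0.344. For mmu-let-7i r was 0.401 and the SD 0.549. Its brighter probe exceeded the dimmer one by 0.23 to 0.39 on the log2 scale among the 6 arrays of slide 1. The gap was 0.17 to 0.48 among the 5 arrays of slide 2 and 1.29 to 1.61 among the 5 of slide 3, so that slide 3 stood clear of the others. In a model with population and slide, the probe ratio changed with slide for mmu-let-7i (limma F-test, adjusted p = 0.00206), mmu-let-7d (adjusted p = 0.034) and mmu-let-7c (adjusted p = 0.0462), 3 of the 8 members, against 16.7% of the 198 miRs that had 2 passing probes. Any difference of mmu-let-7i between slide 3 and the other slides therefore depends on the probe. The brighter probe stands for each member below, and the dimmer one is given where it changes the sign or the call of a difference described. Population differences with slide as a block, or without some of the arrays, are given by the brighter probe alone.

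**Figure D1:**
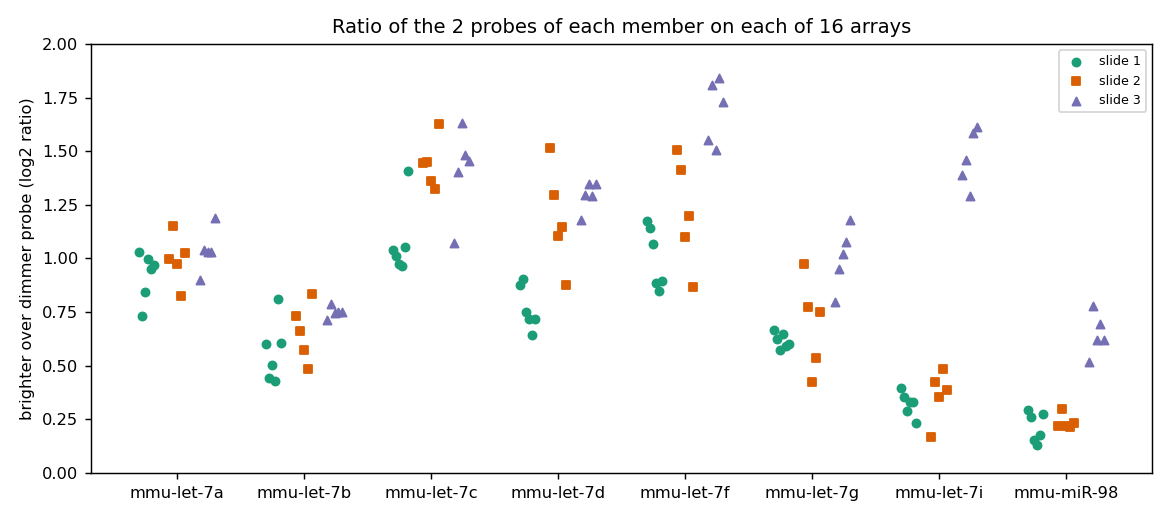
Log2 ratio of the brighter over the dimmer probe of each of the 8 members (y axis) on each of the 16 arrays, 1 point per array, with colour and shape giving the slide. For mmu-let-7i the 5 arrays of slide 3 lie between 1.29 and 1.61, above all 11 arrays of slides 1 and 2.

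As a check of the labels, miR-223, a granulocyte and monocyte miR, was highest in the GMP arrays, at 14.04 in each, and the erythroid miR-451 was at 11.73 to 12.39 in MEP against 4.82 to 7.83 in CMP and GMP. Stem-cell miRs such as miR-125b-5p and miR-99a were higher in the HSC subsets than in the myeloid progenitors (log2 differences 3.00 and 2.92, limma adjusted p = 2.41e-08 and 1.2e-08). The defining miRs of stroma (miR-143, miR-145), epithelium (miR-200c, miR-205) and liver (miR-122) were well above background on no array. Those of muscle (miR-1, miR-133a, miR-206) were each well above background on 1 array, of MEP. The neuronal miR-124 was so on 2 arrays, both of CMP, where its mean was 4.40. The LT-HSC array was the dimmest, with 142 miRs well above background against 145 to 226 on the others, and it also carried erythroid miRs. On it miR-451 stood at 11.15, against 8.10 on the ST-HSC array of the same slide. miR-144 stood at 5.29 against 4.48 and miR-486 at 6.34 against 3.38. The part of this in the values of the LT-HSC array was not tested.

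The normalized values below are log2 signals after quantile normalization, which gives equally ranked bright probes the same value, so some arrays hold identical numbers. Levels of different members are not compared, because each probe has a brightness of its own. In bulk RNA, fewer cells of a type and less RNA per cell cannot be told apart.

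mmu-let-7a, the most widely studied member, had a log2 signal of 10.24 on the LT-HSC array. It stood at 10.15, 11.79 and 12.07 on ST-HSC replicates 1, 2 and 3 and at 12.24, 12.24 and 12.39 in MPP. It stood at 11.15, 11.15 and 9.85 in CMP, at 11.03, 11.31 and 10.19 in GMP and at 10.61, 10.72 and 9.79 in MEP. MPP was the highest population and the first 2 replicates of each myeloid population lay above the third, which was on slide 2.

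mmu-let-7c followed the same course. It stood at 9.06 in LT-HSC, at 8.80, 10.42 and 10.84 in ST-HSC and at 11.03, 10.89 and 10.93 in MPP. In the myeloid progenitors it stood at 9.75, 9.91 and 8.51 in CMP, 9.48, 9.52 and 8.51 in GMP and 9.31, 9.40 and 8.14 in MEP. mmu-let-7b, mmu-let-7d and mmu-let-7f had their highest mean in MPP too (10.19, 11.31 and 12.72) and their lowest in LT-HSC (8.17, 9.48 and 10.48).

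mmu-let-7g, the product of a gene that stands alone, varied less. It stood at 9.85 in LT-HSC, at 9.91, 10.48 and 10.61 in ST-HSC, at 10.93, 10.93 and 11.03 in MPP, at 10.45, 10.45 and 9.62 in CMP, at 10.45, 10.61 and 9.88 in GMP and at 10.12, 10.08 and 9.55 in MEP. The order of the populations began with MPP and ended with LT-HSC, as for mmu-let-7a.

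mmu-let-7i kept the most even level over the populations. It stood at 10.19 in LT-HSC, at 10.84, 10.15 and 10.36 in ST-HSC, at 10.45, 10.48 and 10.42 in MPP, at 10.66 in each CMP array, at 10.31, 10.48 and 10.31 in GMP and at 9.91, 9.79 and 9.91 in MEP. Its population means spanned 0.79 log2 units, against 1.11 for mmu-let-7g, 1.83 to 2.23 for mmu-let-7a, mmu-let-7b, mmu-let-7c, mmu-let-7d and mmu-let-7f, and 2.96 for mmu-miR-98. The MEP arrays were the lowest of all 16 for this member. By its dimmer probe the span was wider and the HSC arrays of slide 3, at 8.76 to 9.16, were the lowest.

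mmu-miR-98, which has the let-7 seed under another name, had its highest mean in GMP. It stood at 4.16 in LT-HSC, at 5.53, 6.57 and 6.91 in ST-HSC, at 6.95, 6.98 and 6.95 in MPP, at 6.86, 7.12 and 5.92 in CMP, at 7.42, 7.55 and 6.39 in GMP and at 6.41, 6.34 and 5.30 in MEP. On the LT-HSC array only a share of 0.2 of its 10 spots was well above background, so the level there is a bound.

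**Figure D2:**
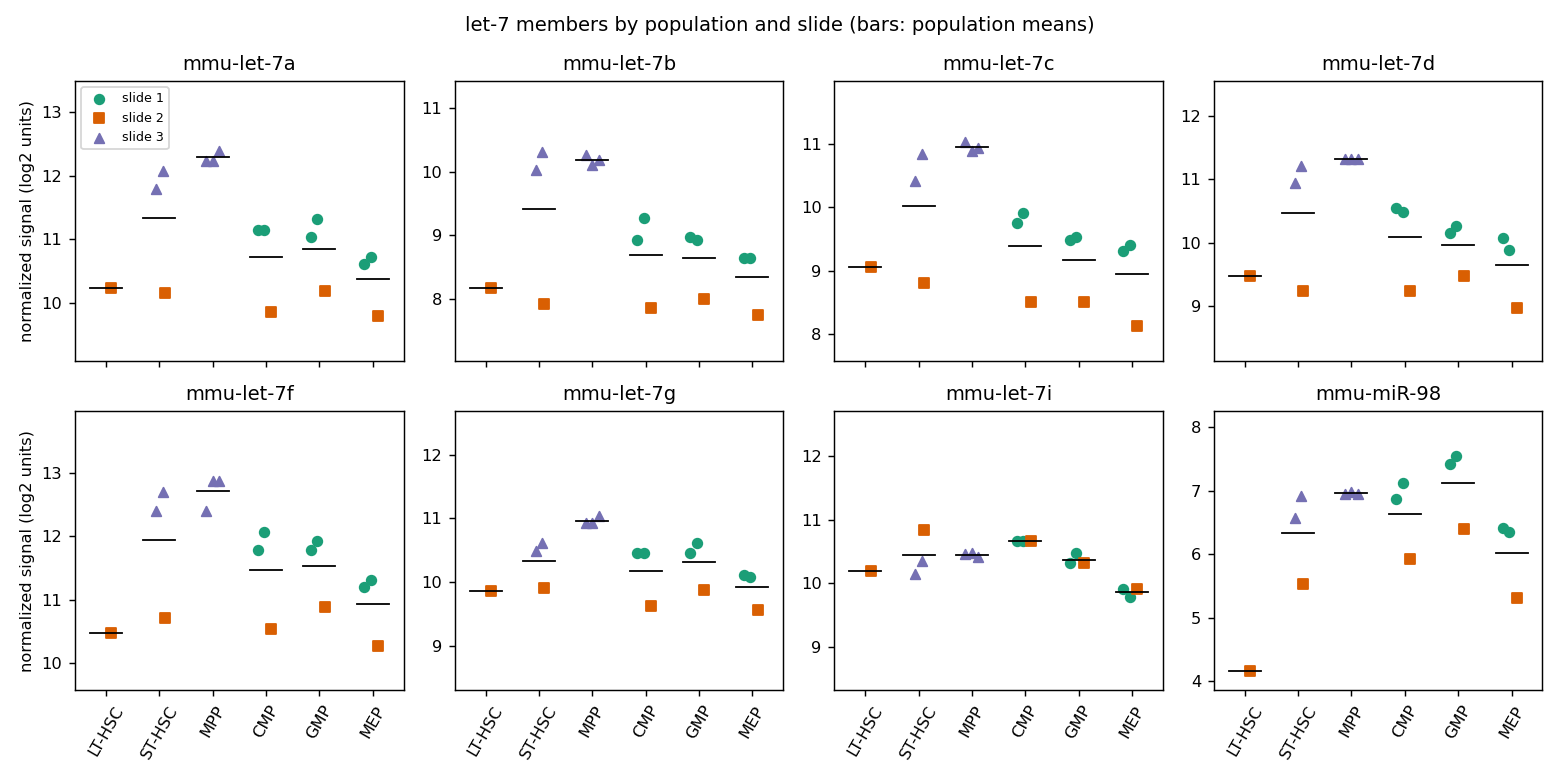
Normalized signal (y axis, log2 units, each panel spanning the same number of units) of the 8 members on the 16 arrays by population (x axis), 1 point per array coloured by slide, with a bar at each population mean. The slide 2 array (square) is the lowest of its population in ST-HSC, CMP, GMP and MEP for every member other than mmu-let-7i.

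Across the 6 populations, 6 of the 8 members passed the F-test (limma, adjusted p under 0.05), against 82.7% of the 237 tested miRs. The adjusted p was 0.0088 for mmu-miR-98, 0.0251 for mmu-let-7i, 0.0272 for mmu-let-7a, 0.0289 for mmu-let-7c and 0.0497 for both mmu-let-7b and mmu-let-7f. mmu-let-7g (adjusted p = 0.0507) and mmu-let-7d (adjusted p = 0.0586) fell just short. Single arrays decide this count: it was 2 without any 1 of the MPP arrays or MEP replicate 3, and 8 without CMP replicate 3 or ST-HSC replicate 1. Neighbours in the order of population means mostly overlapped in their single arrays.

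The replicates of a population parted by slide. In ST-HSC, CMP, GMP and MEP, the populations with arrays on slide 2 and on another slide, the slide 2 array was the lowest for 7 of the 8 members in each. The gap to the mean of the other arrays ran from -0.83 to -1.39 in CMP, -0.65 to -1.09 in GMP, -0.55 to -1.22 in MEP and -0.64 to -2.24 in ST-HSC on the log2 scale. The exception was mmu-let-7i, for which the gap was 0 in CMP, -0.09 in GMP, 0.06 in MEP and 0.58 in ST-HSC.

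With slide and population in 1 model, the 7 members other than mmu-let-7i were lower on slide 2 than on slide 1, by -0.68 ± 0.09 (SE) for mmu-let-7g to -1.18 ± 0.11 for mmu-let-7c, with limma adjusted p between 1.54e-05 and 0.00013. The share of all tested miRs called lower in this comparison was 32.5%, and the median over all of them was -0.13. mmu-let-7i did not differ detectably (-0.01 ± 0.09, adjusted p = 0.945). Slide 3 lay above slide 2 for the same 7 members, by 0.64 ± 0.16 for mmu-let-7g to 2.24 ± 0.20 for mmu-let-7b, where 23.6% of all tested miRs were called higher and the median was 0.01. Here mmu-let-7i went the other way (-0.58 ± 0.16, adjusted p = 0.00967), and by its dimmer probe further so (-1.58 ± 0.19, adjusted p = 6.19e-05). That second comparison rests on ST-HSC alone, 1 array against 2. Slide, replicate and time of hybridization cannot be told apart here, since each slide held different replicates. The slides also differed in background. Negative control spots reached 9.94 to 44.3 units at their 95th percentile on slide 1 arrays against 1.53 to 3.35 elsewhere, and its part in these differences was not tested.

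**Figure D3:**
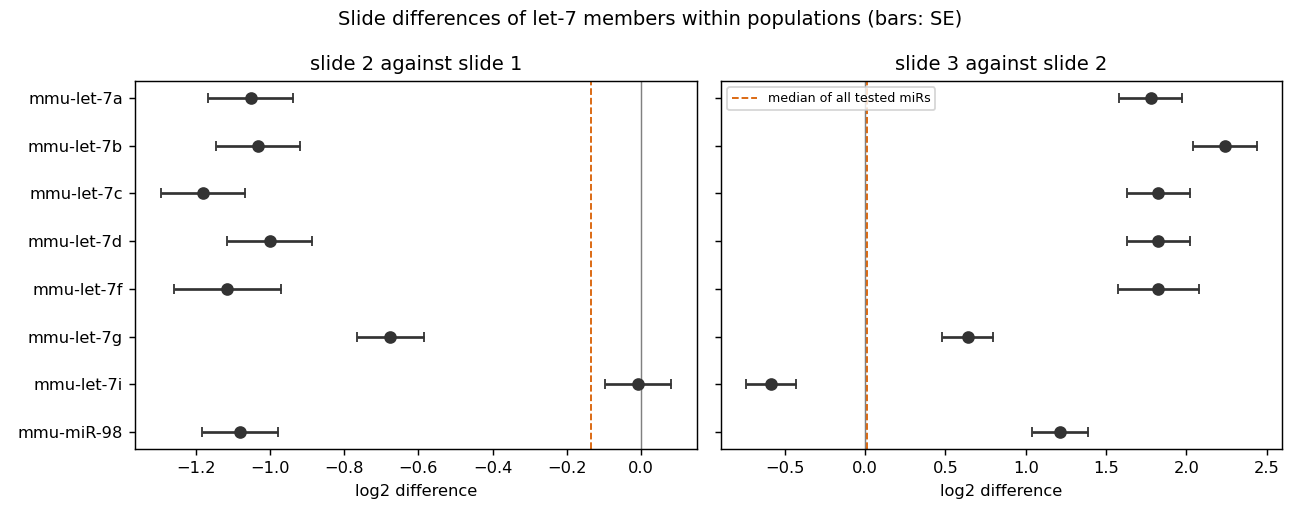
Log2 difference between slides (x axis) for each of the 8 members (y axis), from the model with population and slide, with bars of 1 SE and a dashed line at the median of the 237 tested miRs. mmu-let-7c stands at -1.18 and mmu-let-7i at -0.01 in the comparison of slide 2 with slide 1.

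The same was visible without normalization between arrays. The 8 brighter probes held 2.10 to 4.17% of the summed signal of all probes among the arrays of slide 2. Their share was 3.62 to 8.69% for slide 1 and 10.02 to 13.4% for slide 3, without overlap between slide 3 and the others. Within slide 1 the share was 7.79 and 8.69% in CMP, 6.49 and 7.29% in GMP and 3.76 and 3.62% in MEP, so MEP was the lowest. Within slide 2 it was 2.84% in LT-HSC, 4.17% in ST-HSC, 3.73% in CMP, 3.49% in GMP and 2.10% in MEP. Within slide 3 it was 10.02 and 11.6% in ST-HSC and 12.9, 12.9 and 13.4% in MPP.

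Between the HSC subsets (mean of LT-HSC, ST-HSC and MPP) and the myeloid progenitors (mean of CMP, GMP and MEP), only mmu-miR-98 was called, against 48.1% of the tested miRs. It was lower in the HSC subsets, with a log2 difference of -0.77 ± 0.29 (SE, limma adjusted p = 0.0453). This call rests on the LT-HSC array, where the miR was at its bound: without that array the difference was 0.06 (adjusted p = 0.859).

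The other 7 members had higher means in the HSC subsets by their brighter probes and none was called. The largest difference was that of mmu-let-7c, at 0.84 ± 0.36 (95% interval 0.07 to 1.61, adjusted p = 0.0673), followed by mmu-let-7b at 0.70 ± 0.37 (adjusted p = 0.131) and mmu-let-7a at 0.64 ± 0.33 (-0.07 to 1.36). mmu-let-7i was at 0.06 ± 0.13 (-0.21 to 0.33) by its brighter probe and at -0.51 (adjusted p = 0.089) by its dimmer one. The dimmer probes of mmu-let-7f and mmu-let-7g also turned the sign, at -0.17 and -0.12, and that of mmu-let-7d gave 0.0088. Those of mmu-let-7a, mmu-let-7b and mmu-let-7c gave 0.54, 0.56 and 0.61. The members' median was 0.46, beside 0.06 over all tested miRs. These values also turned on the LT-HSC array. Without it, 6 members were called higher in the HSC subsets, against 36.3% of the tested miRs, among them mmu-let-7a at 1.17 (adjusted p = 0.0071) and mmu-let-7c at 1.32 (adjusted p = 0.00531), and mmu-let-7i was not (0.15, adjusted p = 0.309). Of the 6 HSC arrays then left, 5 lay on slide 3, which held no myeloid array.

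When slide was added to the model as a block, 4 members were called, against 44.3% of the tested miRs. mmu-let-7c was higher in the HSC subsets by 0.61 ± 0.16 (adjusted p = 0.00921), mmu-let-7i by 0.39 ± 0.13 (adjusted p = 0.0264) and mmu-let-7g by 0.35 ± 0.13 (adjusted p = 0.0454), while mmu-miR-98 was lower by -0.72 ± 0.14 (adjusted p = 0.00175). The last value includes the LT-HSC array, where mmu-miR-98 was not well above background. With slide as a block and that array left out, it stood at -0.23 ± 0.18 (adjusted p = 0.3). The other 3 were then still called, against 48.9% of the tested miRs, at 0.58 for mmu-let-7c (adjusted p = 0.0324), 0.43 for mmu-let-7g (adjusted p = 0.0418) and 0.64 for mmu-let-7i (adjusted p = 0.00696). In that fit ST-HSC replicate 1 was the only HSC array on a slide that also held myeloid arrays, so these differences hang on that array. All values with slide as a block are from the brighter probes. In the model without slide, the dimmer probe of mmu-let-7c gave 0.61, and those of mmu-let-7g and mmu-let-7i gave -0.12 and -0.51. Whether the calls with slide as a block hold by the dimmer probes was not tested. Slide 2 alone held arrays of both sides. There, in 2 arrays against 3, the differences were 0.04 to 0.55 for the 7 let-7 members and -1.02 for mmu-miR-98, and none was called. Without the 5 arrays of slide 2, the HSC subsets lay on slide 3 and the myeloid progenitors on slide 1, and 6 members were called higher in the HSC subsets, against 43.9% of the tested miRs, a comparison in which slide and population cannot be told apart.

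**Figure D4:**
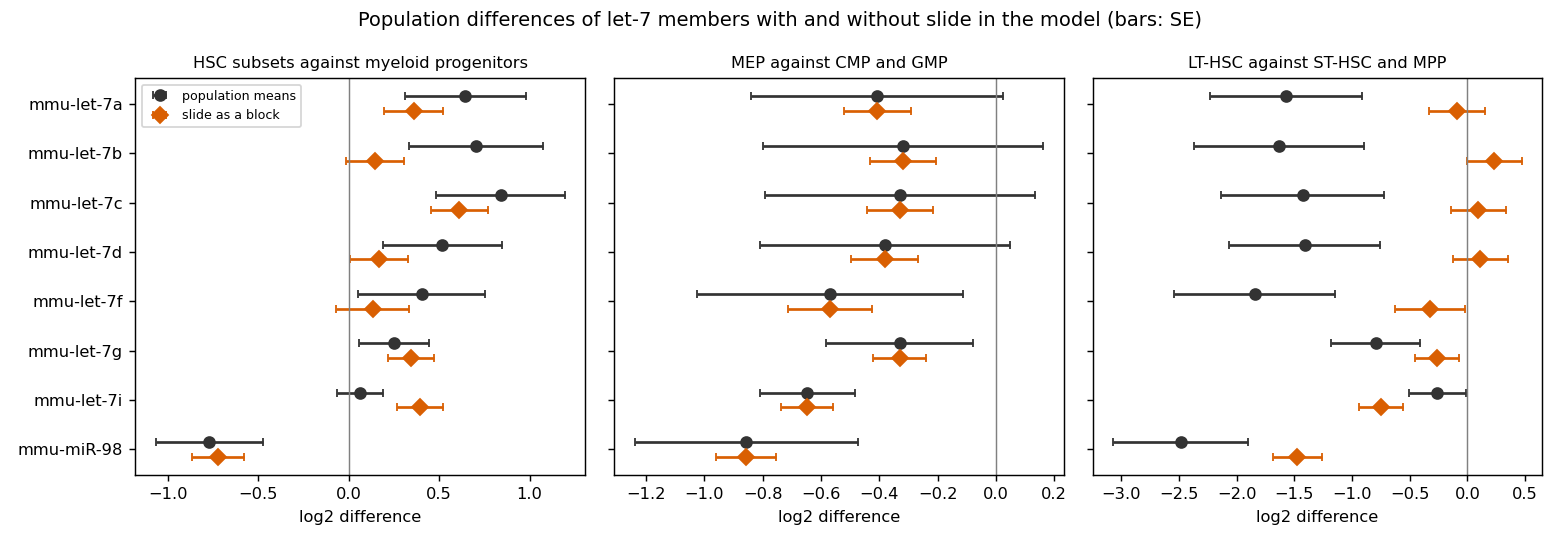
Log2 differences (x axis) of the 8 members (y axis) in 3 comparisons, from population means alone (circles) and with slide as a block (diamonds), with bars of 1 SE. For MEP the 2 models give the same differences and the block has the smaller SE, while for LT-HSC mmu-let-7a moves from -1.57 to -0.09.

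Within the myeloid progenitors, every member had a lower mean in MEP than in CMP and GMP, and mmu-let-7i was called, at -0.65 ± 0.16 (limma adjusted p = 0.0031). Of all tested miRs 45.1% were called lower in MEP. The difference of mmu-let-7i was negative and called in each of the 16 fits that left out 1 array (-0.67 to -0.61), and by its dimmer probe it was -0.60 (adjusted p = 0.0891). mmu-miR-98 had the largest difference, at -0.86 ± 0.38, and was not called (adjusted p = 0.0633), while its dimmer probe was (-0.88, adjusted p = 0.0464). mmu-let-7f stood at -0.57 ± 0.46 (adjusted p = 0.274) and the other 5 lay between -0.41 and -0.32.

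The comparison was balanced over slides 1 and 2, so adding slide left the differences as they were and shrank their errors. All 8 members were then called lower in MEP, against 59.1% of the tested miRs. The differences ran from -0.32 ± 0.11 (adjusted p = 0.0212) for mmu-let-7b to -0.86 ± 0.10 (adjusted p = 1.06e-05) for mmu-miR-98. On slide 1 alone, with 2 arrays per population, all 8 were called as well (-0.31 to -0.86), against 52.7% of the tested miRs, and on slide 2 the single arrays gave -0.18 to -0.85. The median over all tested miRs was itself -0.49 in this comparison, below the members' median of -0.39. Scaled to the 75th percentile of the probes detected on all arrays, the medians were -0.15 over all and -0.33 over the members.

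CMP and GMP did not differ detectably in any member (limma, 0 of 8 called, smallest adjusted p = 0.473 for mmu-let-7i, none with an unadjusted p under 0.05), against 7.59% of the tested miRs. The intervals were wide, for example -1.21 to 0.95 around -0.13 for mmu-let-7a. mmu-miR-98 was lower in CMP by -0.48 ± 0.44, and with slide as a block this was called (-0.48 ± 0.12, adjusted p = 0.00999), 1 of 8 against 28.7%. On slide 1 its CMP values of 6.86 and 7.12 lay below its GMP values of 7.42 and 7.55, and on slide 2 it stood at 5.92 against 6.39.

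Between ST-HSC and MPP no member was called (limma, 0 of 8, with 1, mmu-let-7g, at an unadjusted p under 0.05), against 4.64% of the tested miRs. The difference of mmu-let-7a was -0.95 ± 0.50 (adjusted p = 0.345) and those of the other members down to mmu-miR-98 lay between -0.93 and -0.62. mmu-let-7i stood at -0.00 (95% interval -0.41 to 0.41) by its brighter probe and at 0.40 (adjusted p = 0.514) by its dimmer one. The ST-HSC array on slide 2 lay below the other ST-HSC arrays in the 7 members other than mmu-let-7i. With slide as a block the difference of mmu-let-7a was -0.36 ± 0.15 (adjusted p = 0.123). That of mmu-let-7g, -0.42 ± 0.12, was called (adjusted p = 0.0346), 1 of 8 against 17.7%. On slide 3, mmu-let-7g stood at 10.48 and 10.61 in ST-HSC and at 10.93, 10.93 and 11.03 in MPP, without overlap.

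The single LT-HSC array gave the lowest or the second lowest of the 6 population means for every member. Against ST-HSC and MPP, only mmu-miR-98 was called, at -2.49 ± 0.58 (limma adjusted p = 0.00552), where 21.1% of the tested miRs were called lower. As it was not well above background in LT-HSC, only a bound can be given. Within slide 2, mmu-miR-98 was at least 2.12-fold higher on the ST-HSC array than on the LT-HSC array. Over all arrays, with no allowance for slide, the bound was at least 4.61-fold. The other members lay between -0.26 for mmu-let-7i and -1.84 for mmu-let-7f (adjusted p = 0.0627). Every ST-HSC and MPP array but 1 lay on slide 3. The comparison with slide as a block therefore turns on the LT-HSC array against that 1 array, ST-HSC replicate 1, each alone of its population on slide 2. mmu-let-7i stood at 10.84 on that ST-HSC array, against 10.15 and 10.36 on the other ST-HSC arrays. With slide as a block, mmu-let-7a stood at -0.09 ± 0.24, mmu-let-7b at 0.23 ± 0.24, mmu-let-7c at 0.09 ± 0.24 and mmu-let-7d at 0.11 ± 0.24. Only mmu-let-7i (-0.75 ± 0.19, adjusted p = 0.00697) and mmu-miR-98 (-1.47 ± 0.21, adjusted p = 0.000319) were called, 2 of 8 against 39.2%. For mmu-miR-98 this fitted size again rests on a value that was not well above background. In the model without slide, mmu-let-7i stood at -0.26 by its brighter probe and at 0.87 by its dimmer one, the opposite sign. Its dimmer probe was not tested in this comparison with slide as a block.

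Ratios of members on the same array test whether the family moves as a unit, since what shifts all members of an array alike cancels. The log2 ratio of every pair of tested miRs was fitted across the populations. Of the 28 pairs of members, 6 changed (limma F-test adjusted over all 27966 pairs), against 83.6% of all pairs. Each of the 6 held mmu-miR-98, paired with mmu-let-7c (adjusted p = 5.76e-05), mmu-let-7a (0.000226), mmu-let-7b (0.000394), mmu-let-7d (0.000452), mmu-let-7f (0.00157) and mmu-let-7g (0.00236). With mmu-let-7i the adjusted p was 0.0503. None of the 21 pairs without mmu-miR-98 was called, and the smallest adjusted p among them was 0.0812. That count rests on ST-HSC replicate 1. Without this array 17 pairs were called, against 89.7% of all pairs, namely the 7 with mmu-miR-98 and 10 without it, each of which held mmu-let-7g or mmu-let-7i.

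The pairs with mmu-miR-98 differed between the HSC subsets and the myeloid progenitors. The ratio of mmu-let-7c over mmu-miR-98, relative to its mean over the 16 arrays, was 1.70 in LT-HSC, 0.08, 0.65 and 0.73 in ST-HSC and 0.89, 0.71 and 0.79 in MPP. It was -0.31, -0.41 and -0.61 in CMP, -1.13, -1.22 and -1.08 in GMP and -0.30, -0.14 and -0.36 in MEP. Of the 7 HSC arrays, 5 lay on slide 3, which held no myeloid array, and slide shifts did not cancel in full in this ratio. With population in the model, slide 3 lay above slide 2 by 1.83 for mmu-let-7c and by 1.21 for mmu-miR-98. All 7 HSC arrays lay above all 9 myeloid arrays, and GMP was the lowest myeloid population on slide 1 and on slide 2. The difference was 1.61 ± 0.18 (limma adjusted p = 9.14e-06, 95% interval 1.22 to 2.01). For the 6 pairs called in this comparison it ran from 1.02 to 1.61, where 48.5% of all pairs were called. The arrays of the 2 sides did not overlap in 4 of the 7 pairs with mmu-miR-98 (those with mmu-let-7a, mmu-let-7c, mmu-let-7d and mmu-let-7f) and in none of the others, against 6.94% of all pairs. Between LT-HSC and the mean of ST-HSC and MPP, 4 pairs were called as well, against 28.8% of all pairs, those of mmu-miR-98 with mmu-let-7g (1.69, adjusted p = 0.00719), mmu-let-7i (2.23, 0.0284), mmu-let-7c (1.06, 0.0436) and mmu-let-7d (1.08, 0.0441). These sizes depend on the mmu-miR-98 value in LT-HSC, which was not well above background. No member pair was called in the other 3 comparisons.

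Without the LT-HSC array, where mmu-miR-98 was at its bound, 5 of the 7 pairs with mmu-miR-98 were called between the HSC subsets and the myeloid progenitors, and so were 6 of the 21 pairs without it, against 58.2% of all pairs. The 6 were mmu-let-7a, mmu-let-7b and mmu-let-7c, each over mmu-let-7g (0.65 to 0.80) and over mmu-let-7i (1.02 to 1.17). Most of the HSC arrays in this fit lay on a slide without myeloid arrays, so these calls do not separate population from slide. The level of mmu-let-7i on that slide also depended on the probe. Among the pairs with mmu-miR-98, mmu-let-7c over mmu-miR-98 stood at 1.26 (adjusted p = 4.62e-05), and those with mmu-let-7g (0.46, adjusted p = 0.0562) and mmu-let-7i (0.09, adjusted p = 0.83) were not. The model with slide as a block included the LT-HSC array, where mmu-miR-98 was not well above background. In it each of the 7 pairs with mmu-miR-98 was called in this comparison, at 0.86 to 1.34, against 46.1% of all pairs. None of the 21 pairs without mmu-miR-98 was called in it, and the 6 named above lay between -0.25 and 0.27. Pairs were not tested with slide as a block and the LT-HSC array left out. The F-test with that block called 9 of the 28 pairs, against 90.1% of all pairs, namely the 7 with mmu-miR-98 and those of mmu-let-7i with mmu-let-7g (adjusted p = 0.032) and mmu-let-7c (0.0489).

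**Figure D5:**
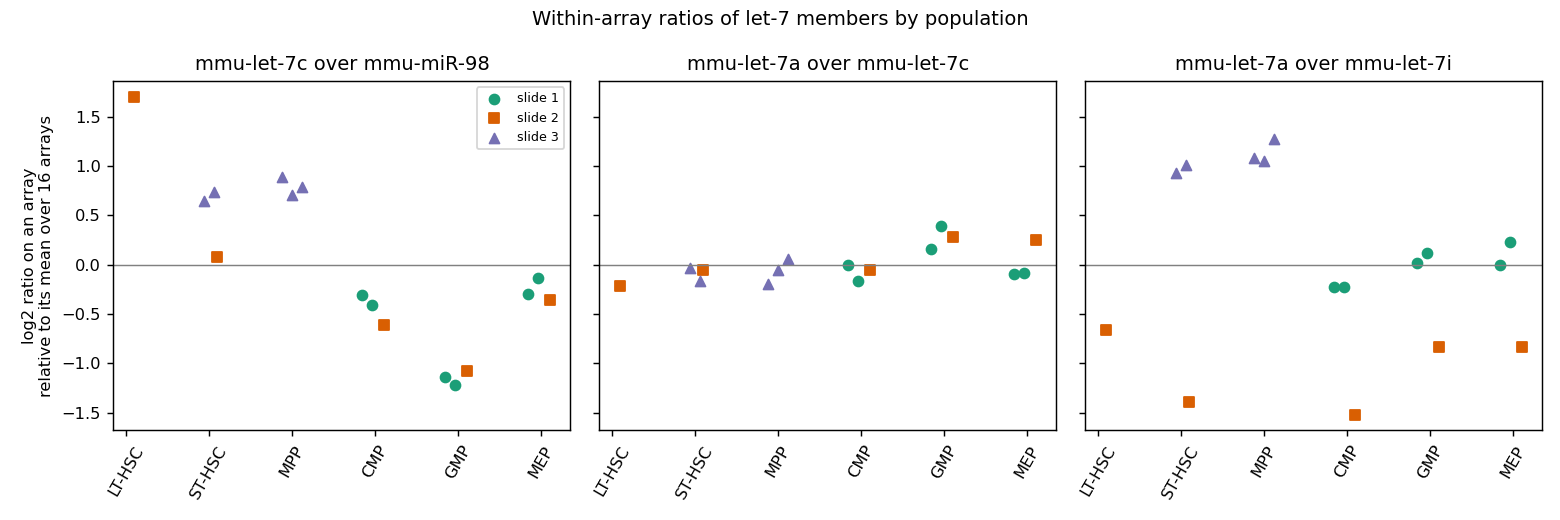
Log2 ratio of 2 members on the same array, relative to the mean of that ratio over the 16 arrays (y axis), by population (x axis), with colour and shape giving the slide. mmu-let-7c over mmu-miR-98 lies between 0.08 and 1.70 on the HSC arrays and between -1.22 and -0.14 on the myeloid arrays, mmu-let-7a over mmu-let-7c stays within -0.22 and 0.39, and mmu-let-7a over mmu-let-7i has its slide 2 arrays lowest.

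Ratios among mmu-let-7a, mmu-let-7b, mmu-let-7c, mmu-let-7d and mmu-let-7f varied less, and none of these 10 pairs was called. mmu-let-7a over mmu-let-7c ranged from -0.22 to 0.39 around its mean over the 16 arrays, and its difference between the HSC subsets and the myeloid progenitors was -0.19 (95% interval -0.56 to 0.18). For mmu-let-7a over mmu-let-7d the difference was 0.13 (-0.24 to 0.49) and for mmu-let-7a over mmu-let-7b it was -0.06 (-0.45 to 0.33). The widest was mmu-let-7c over mmu-let-7f, at 0.44 (0.05 to 0.82, adjusted p = 0.0605), which ranged from -0.41 to 0.62 around its mean. In contrast mmu-let-7a over mmu-let-7i ranged from -1.52 to 1.27. It lay between 0.93 and 1.27 on slide 3, between -0.23 and 0.23 on slide 1 and between -1.52 and -0.66 on slide 2. Slide 3 held HSC arrays alone and slide 1 myeloid arrays alone, so slide and population cannot be told apart between those slides, while slide 2 held both and lay below each.

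As a description, the 3 pairs of members that differ by 1 base had correlations over the 16 arrays of 0.979 to 0.986. The 8 pairs that differ by 2 bases ran from 0.244 to 0.987 and the 9 pairs that differ by 4 bases from 0.151 to 0.985. Every pair below 0.3 held mmu-let-7i, and the 21 pairs without it ran from 0.576 to 0.987. The points share arrays and slides.

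mmu-let-7e shares the seed and is made from another cluster. Its mean log2 signal was 5.73 in LT-HSC, 6.55 in ST-HSC, 7.46 in MPP, 4.43 in CMP, 3.21 in GMP and 1.73 in MEP, and it was well above background on all 7 HSC arrays and on 2 of the 9 myeloid ones. The difference between HSC subsets and myeloid progenitors was 3.46 ± 0.25 (limma adjusted p = 1.4e-07), a fitted size that depends on the floor. Against MEP, where it was well above background on no array, mmu-let-7e was at least 7.61-fold higher in the HSC subsets. mmu-let-7e differs from mmu-let-7a by U9G alone. On the MEP arrays mmu-let-7a gave a signal of 325 to 1557 units before normalization, while mmu-let-7e gave 1.53, 3.34 and 1.74 units. After normalization, the mean log2 signal of mmu-let-7e in MEP, 1.73, lay close to the floor of 1.62 on the log2 scale.

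The miRs that share clusters with let-7 genes were higher in the HSC subsets as well. miR-99a and miR-125b-5p, made from clusters that also hold Mirlet7c-1 and, for miR-125b-5p, Mirlet7a-2, miR-100 from the Mirlet7a-2 cluster, and miR-99b and miR-125a-5p from the Mirlet7e cluster were all called higher in the HSC subsets (5 of 5, log2 differences 1.10 to 3.16). Of all tested miRs 25.3% were called higher there. miR-125a-5p, with the largest difference, and miR-99b were well above background on no myeloid array, so their sizes depend on the floor. In MEP 4 of the 5 were called lower than in CMP and GMP, against 45.1% of the tested miRs. There miR-99a differed by -3.26 ± 0.21 (limma adjusted p = 4.32e-08), while miR-100 and miR-125a-5p were well above background on no MEP array. Members of the same clusters, mmu-let-7a and mmu-let-7c, stood at -0.41 and -0.33 in that comparison and were not called.

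Passenger arms, the strand of the hairpin that is mostly discarded, were near the floor. Of the 7 on the array, 5 were well above background on none of the 16 arrays. let-7d* was so on 6 arrays and let-7c-2* on 5. let-7d* was lower in LT-HSC than in ST-HSC and MPP (-1.64, adjusted p = 0.0203) and in MEP than in CMP and GMP (-0.90, adjusted p = 0.0215), and let-7c-2* was lower in the HSC subsets (-0.85, adjusted p = 0.0145). Neither was well above background on the other arrays, which limits the precision of these sizes. Of 3 other miRs whose precursors Lin28 is known to bind, miR-107 was detected on all 16 arrays and was called in no comparison (0.30, adjusted p = 0.101 between HSC subsets and myeloid progenitors), while miR-143 and miR-200c were well above background on none.

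Outside the family, the miRs whose course over the 16 arrays was most like the mean of the members were miR-26b (r = 0.948), let-7d* (r = 0.913), miR-29b* (r = 0.903), miR-103 (r = 0.886) and miR-10b (r = 0.884). These are descriptions, as all points share the arrays and the slides. On CMP arrays, for example, miR-26b stood at 9.62 and 9.69 on slide 1 and at 8.98 on slide 2.

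The loops of the precursors were read for GGAG, a short motif that Lin28 is known to bind. The search took the bases between the 2 mature arms on the RNA strand, in RefSeq hairpins that list both arms. The motif was in 7 of 10 member hairpins, against 8.1% of 642 hairpins. The loops below are those of 4 members made from a single gene, with the motif in capitals, and a loop without capitals does not hold those letters.
Mirlet7g: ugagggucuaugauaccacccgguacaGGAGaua
Mirlet7i: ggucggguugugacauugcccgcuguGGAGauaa
Mirlet7d: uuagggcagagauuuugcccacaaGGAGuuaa
Mirlet7b: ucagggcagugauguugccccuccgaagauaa

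Among the 4 loops shown, that of Mirlet7b lacks the letters. The loop of Mirlet7c-2 lacks them too and that of Mirlet7c-1 holds them, and both genes give the same mature mmu-let-7c. The members with and without the letters were not tested against each other.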

How the data were processed

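Groups and, where given, replicate numbers were taken from the sample titles, and slides from the array identifiers in the labels. No per-sample column was left unused. The deposited scanner files hold spot intensities that the authors' facility obtained with Agilent Feature Extraction, local background subtracted and not normalized between arrays. Their log2 values, quantile normalized with limma, were deposited as well and followed the rank order of each array's median foreground signal (Spearman rho 1 on all 16 arrays), so without background subtraction. Their column medians lay between 5.41 and 5.44.

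Here, control spots and spots marked as outliers were dropped, the intensities of a probe's remaining spots averaged, and the 1712 probes quantile normalized, raised to a floor of 3.07 units (the 95th percentile of the negative controls on the median array) and converted to log2. Detection on an array meant that the scanner software marked a share of 0.5 or more of the probe's spots as well above background. Probes that met this on at least 3 arrays were tested, 493 probes of 237 miRs, and each miR was read from its brightest such probe. No spot was saturated. The number of arrays limits the precision.

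Population means were fitted to all 16 arrays with limma 3.58.1 in R 4.3.3, leaving 10 residual degrees of freedom and 3.1 prior ones. Tests were two-sided, adjusted by Benjamini-Hochberg over the 237 miRs within a comparison, or over 27966 pairs for ratios, and called at 0.05. LT-HSC was unreplicated and took the spread of the other populations. Each replicate was a pool of mice by the study's methods. The labels do not say whether replicates came from separate mice, and p-values measure the spread between these arrays. On simulated data with 60 of 237 miRs changed by 1.5 log2 units, the model recovered 95% between HSC subsets and myeloid progenitors, 76.7% for MEP, 70% for both CMP against GMP and ST-HSC against MPP, with 53.3% for the LT-HSC comparison. False calls made up 6.56% of the calls between HSC subsets and myeloid progenitors and at most 4.55% in the other comparisons. The simulated arrays had independent errors and no slide difference, unlike the real ones, so these shares do not cover slide.

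The members, lists and tests were chosen with earlier results of these data known. The text names all 8 members, mmu-let-7e, cluster neighbours, passenger arms, 3 other Lin28-bound miRs and the 5 miRs most like the members' mean. Alternatives tried were 2 scalings to the 75th percentile, no normalization, normexp with an offset of 50, a floor of 1 unit, 2 other filters, averaging the probes of each miR, slide and replicate number as blocks, the authors' values, an intensity trend, single slides and leaving out each array. Leaving out slide 2, and slide as a block with the LT-HSC array left out, were added after seeing the data. 1 of the member hairpin loops is not reported here. Probe positions are on mm9 in the files, and sequences and gene positions on GRCm38.p6 in RefSeq.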

Additional observations from a re-analysis of the deposited data

How the results depend on the processing

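Of 1179 recomputed member differences, 1032 kept their direction and side of the threshold. The call of mmu-let-7i lower in MEP held in every alternative that gave a test, slide 2 alone giving a value with none, although its dimmer probe by itself was not called. With 6 members called by the F-test, scaling to the 75th percentile of probes detected on all arrays gave 3, and no filter or the mean of a miR's probes gave 2 each. Between HSC subsets and myeloid progenitors (1 called), that scaling, normexp, the filter on all arrays, no filter, the authors' values and slide 2 alone gave 0, slide as a block 4, that block with the LT-HSC array left out 3 and leaving out slide 2 gave 6. For MEP (1), the 75th percentile of all probes gave 5, the mean of probes 2, and slide as a block or slide 1 alone 8. For CMP against GMP (0) slide as a block gave 1, as it and slide 3 alone did for ST-HSC against MPP (0). For LT-HSC (1), the scaling to probes detected on all arrays and the filter on all arrays gave 0, the 75th percentile of all probes and no normalization 8 and slide as a block 2. For the pairs (6), normexp and the authors' values gave 10 and the filter on all arrays, which drops mmu-miR-98, 0. Leaving out 1 array gave 2 to 8 members by the F-test, 0 to 6 for HSC subsets, 1 to 2 for MEP, 1 to 6 for LT-HSC and 5 to 17 pairs. The F-test called 2 members without any 1 of the MPP arrays or MEP replicate 3, and 3 without CMP replicate 1, MEP replicate 1 or MEP replicate 2. Between HSC subsets and myeloid progenitors 0 were called without any 1 of the MPP arrays, the slide 1 arrays or ST-HSC replicate 2. Without ST-HSC replicate 1, the counts were 8 by the F-test, 4 for HSC subsets, 6 for LT-HSC and 17 pairs. Without the LT-HSC array 6 members were called higher in the HSC subsets. Without CMP replicate 3, GMP replicate 3 or ST-HSC replicate 1, 2 were called in MEP, and without the first of these 2 for LT-HSC. The causes were not tested.

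Signs turned mostly in uncalled differences. Without normalization, HSC subsets against myeloid progenitors gave -0.38, -0.29, -0.12, -0.59, -0.74, -0.75 and -0.97 for mmu-let-7a, mmu-let-7b, mmu-let-7c, mmu-let-7d, mmu-let-7f, mmu-let-7g and mmu-let-7i. With the 75th percentile of all probes the last 4 gave -0.078, -0.22, -0.24 and -0.45, and mmu-let-7i with the mean of probes -0.22. Under that scaling the median of all tested miRs moved from 0.06 to -0.13, and without normalization to -0.60. For CMP against GMP, mmu-let-7b, mmu-let-7c and mmu-let-7d gave -0.25, -0.10 and -0.22 with the 75th percentile of all probes, -0.20, -0.053 and -0.17 without normalization, and -0.13, 0 and -0.23 on slide 2. mmu-let-7i gave -0.013 with the former, and mmu-let-7f 0.078 on slide 1. For ST-HSC against MPP, mmu-let-7i gave 0.00038 with normexp, 0.20 with the mean of probes and 0.00087 with the authors' values. For LT-HSC, slide as a block gave 0.23, 0.093 and 0.11 for mmu-let-7b, mmu-let-7c and mmu-let-7d, slide 2 alone 0.088, 0.25, 0.26 and 0.23 for mmu-let-7a, mmu-let-7b, mmu-let-7c and mmu-let-7d, and the mean of probes 0.30 for mmu-let-7i. Leave-one-out ranges crossed 0 for mmu-let-7i (-0.0025 to 0.15) and mmu-miR-98 (-0.89 to 0.057) between HSC subsets and myeloid progenitors, for mmu-let-7c in MEP (-0.56 to 0.078) and for mmu-let-7i in ST-HSC against MPP (-0.20 to 0.15). For CMP against GMP they did for mmu-let-7a (-0.46 to 0.30), mmu-let-7b (-0.26 to 0.47), mmu-let-7c (-0.11 to 0.66), mmu-let-7d (-0.12 to 0.54), mmu-let-7f (-0.39 to 0.40) and mmu-let-7g (-0.36 to 0.14).

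Where a title gave no number, the array was numbered here (3 in CMP, GMP and MEP, 1 in LT-HSC, ST-HSC and MPP), so numbers cannot pair all samples. Deviations of same-numbered arrays correlated with a median r of 0.397 on the same slide and -0.07 on different slides, and those of differently numbered arrays with 0.247 and 0.0063. With the replicate block, the counts stayed at 6 by the F-test, 1 for HSC subsets, 1 for MEP, 1 for LT-HSC and 6 pairs.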
